A study of Mus musculus and Rattus norvegicus with 12 samples.

Results

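The genes described here are 10 enzymes and enzyme regulators that break down branched-chain amino acids and ketone bodies, namely Bcat1, Bcat2, Bckdha, Bckdhb, Dbt, Bckdk, Ppm1k, Pcca, Oxct1 and Bdh1. They were taken by symbol, with case ignored, and all 10 had a row among the 54087 of the mouse table and the 28909 of the rat table. All 10 also passed the filter on low counts, which kept 18094 mouse and 15497 rat genes. RNA sequencing was done on 12 libraries in 4 groups of 3. The cKO mice carried Jmjd4f/f alleles, with Jmjd4 flanked by loxP sites, and MCM, a Cre recombinase that the Myh6 promoter drives in cardiomyocytes and that tamoxifen switches on. The flox hearts came from Jmjd4f/f mice, labelled as controls, with no Cre named. Both groups were given tamoxifen and the heart apex was taken 14 days later, so Cre activity and loss of Jmjd4 cannot be told apart. The labels give neither the age nor the sex of the mice. The other 6 libraries came from neonatal rat ventricular cardiomyocytes (NRVCs), cultured from 1-day-old Sprague-Dawley pups and kept for 48 h with an siRNA against Jmjd4 (siJmjd4) or a control siRNA (siNC). Nothing states that the NRVC replicates were separate cultures, and p-values for them measure only the spread between these libraries. Jmjd4 encodes a JmjC-domain oxygenase, and the series title links it to the breakdown of the glycolytic enzyme PKM2 and to dilated cardiomyopathy.

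Leucine, isoleucine and valine lose their amino group to a transaminase, mitochondrial (Bcat2) or cytosolic (Bcat1), and the resulting keto acids are committed to oxidation by the branched-chain keto acid dehydrogenase complex in mitochondria. Bckdha and Bckdhb encode the subunits of its decarboxylase, Dbt its transacylase core, Bckdk the kinase that switches it off and Ppm1k the phosphatase that switches it on. Pcca encodes a subunit of propionyl-CoA carboxylase, which takes the propionyl-CoA of isoleucine and valine towards the citric acid cycle. Bdh1 oxidises the ketone body 3-hydroxybutyrate to acetoacetate, and Oxct1 then activates acetoacetate for use in energy metabolism. The heart is known to burn both fuels, and lower expression of branched-chain amino acid enzymes is known from failing hearts.

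Total counts lay between 57174654 and 82187009 per library. Jmjd4 had 8.95, 4.92 and 9.63 CPM (counts per unit of TMM-scaled library size) in cKO hearts, against 19.0, 8.04 and 16.8 CPM in flox hearts, and the groups overlapped (log2 fold change -0.90, SE 0.44, edgeR adjusted p = 0.397). The counts cover the whole gene, which exons were deleted is not stated in the labels, and Jmjd4 exons overlap those of Snap47 on the other strand. The libraries labelled siJmjd4 had 3.58, 3.43 and 3.52 CPM of Jmjd4, against 3.46, 4.40 and 0.982 CPM in siNC libraries, so these libraries were not lower than their controls (log2 fold change 0.25, SE 0.52, edgeR adjusted p = 0.77, and -0.16 without siNC replicate 3, adjusted p = 0.685). In each system 1 control library stood apart. Flox replicate 3 had 1485 of the tested genes at 0, against 125 to 503 in the other hearts, and 41.7% of its counts in mitochondrially encoded genes, against 14.2% to 24.1%. siNC replicate 3 had 461 tested genes at 0, against 78 to 137 in the other NRVC libraries. Across genes, levels were set against those in the other libraries of the same group. They were lower for longer transcripts in flox replicate 3 (Spearman rho -0.65), cKO replicate 2 (-0.57) and siNC replicate 3 (-0.50), and also in siJmjd4 replicate 1 (-0.39). Results are therefore given with all libraries and, where a call changes, also without the control library that stands apart. The apex tissue held cardiomyocyte markers at a summed 28300 to 33600 CPM in cKO hearts and 44820 to 47110 CPM in flox hearts.

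The start regions of Ppm1k and Bckdhb are shown because these members had the lowest log2 fold changes in cKO hearts and lay on opposite sides of the other flox libraries in flox replicate 3. The sequences are the 250 bases before the annotated start, on the gene's strand, from RefSeq on GRCm38.p6, and the capitals mark AGGTCA, the core of sites bound by many nuclear receptors.
Ppm1k, chr6:57535488-57535737, minus strand: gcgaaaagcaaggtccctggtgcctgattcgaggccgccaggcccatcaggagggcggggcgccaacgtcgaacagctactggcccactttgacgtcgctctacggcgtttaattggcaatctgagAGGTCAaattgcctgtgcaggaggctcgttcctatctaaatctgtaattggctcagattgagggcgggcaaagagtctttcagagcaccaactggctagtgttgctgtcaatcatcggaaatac
Bckdhb, chr9:83924887-83925136, plus strand: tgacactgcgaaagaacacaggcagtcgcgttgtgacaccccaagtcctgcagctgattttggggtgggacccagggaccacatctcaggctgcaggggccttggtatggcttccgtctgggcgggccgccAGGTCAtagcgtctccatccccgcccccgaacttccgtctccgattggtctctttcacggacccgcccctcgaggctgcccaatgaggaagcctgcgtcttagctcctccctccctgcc
The Ppm1k window lies upstream of a gene at chr6:57506502-57535468 and the Bckdhb window upstream of a gene at chr9:83925145-84124240 (GENCODE M21 on GRCm38). Windows were found for 9 of the 10 members, 14 windows in all. AGGTCA, searched on both strands, was in 4 of these 14 windows, against 14% of all 32851 windows of this length. It was in a window each of Bcat1, Bckdhb, Pcca and Ppm1k, and the other windows of Bcat1, Bckdhb and Pcca had none. The Bcat1 window lies inside the gene. The Pcca window begins at chr14:122484115, far from the gene start at chr14:122534324, and the bases after it were not found in a GENCODE transcript of Pcca. The longer AAGGTCA, which contains AGGTCA, was in 0 of the 14 windows and in 4.08% of all. CACGTG was in 0 of the 14 windows and in 6.02% of all. A match is a description of these letters only.

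In cKO hearts 8 of the 10 genes had a negative log2 fold change against flox hearts, with a median of -1.15 over the 10 and of 0 over all 18094 genes tested. With total counts alone as the scale, the median was -0.54 over the 10, of which 7 were negative, and 0.54 over all genes. On the TMM scale, every cKO library was below every flox library for 7 of the 10, against 11.2% of all genes tested. These were Bcat2, Bckdha, Bckdhb, Dbt, Ppm1k, Pcca and Oxct1. The TMM factor was 0.441 in flox replicate 3 and 1.057 to 1.349 in the other hearts. Flox replicate 3 had the highest total of the hearts. Before scaling, it had fewer counts than any cKO library for Bcat2 (3278), Ppm1k (1023) and Oxct1 (20129), so for these genes the separation depended on the scale. Its counts of Bckdha, Bckdhb and Pcca were above those of every cKO library, and its count of Dbt lay among theirs. None of the 10 passed edgeR's quasi-likelihood test at an adjusted p under 0.05 with all 6 libraries, a threshold that 0.508% of all genes passed, and 6 had an unadjusted p under 0.05 with a lower level, against 6.79% of all genes. Without flox replicate 3, Bckdhb, Dbt, Ppm1k, Pcca and Oxct1 fell (5 of 10 members, against 2.93% of all 19094 genes tested that were called lower). The number called was also 6 with DESeq2 (4.37% of all genes called lower) and 6 with each library's trend with transcript length removed (3.58%). It was 7 with limma voom and library quality weights (9.34%) and 7 without both flox replicate 3 and cKO replicate 2 (9.53%), all lower in cKO hearts.

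**Figure D1:**
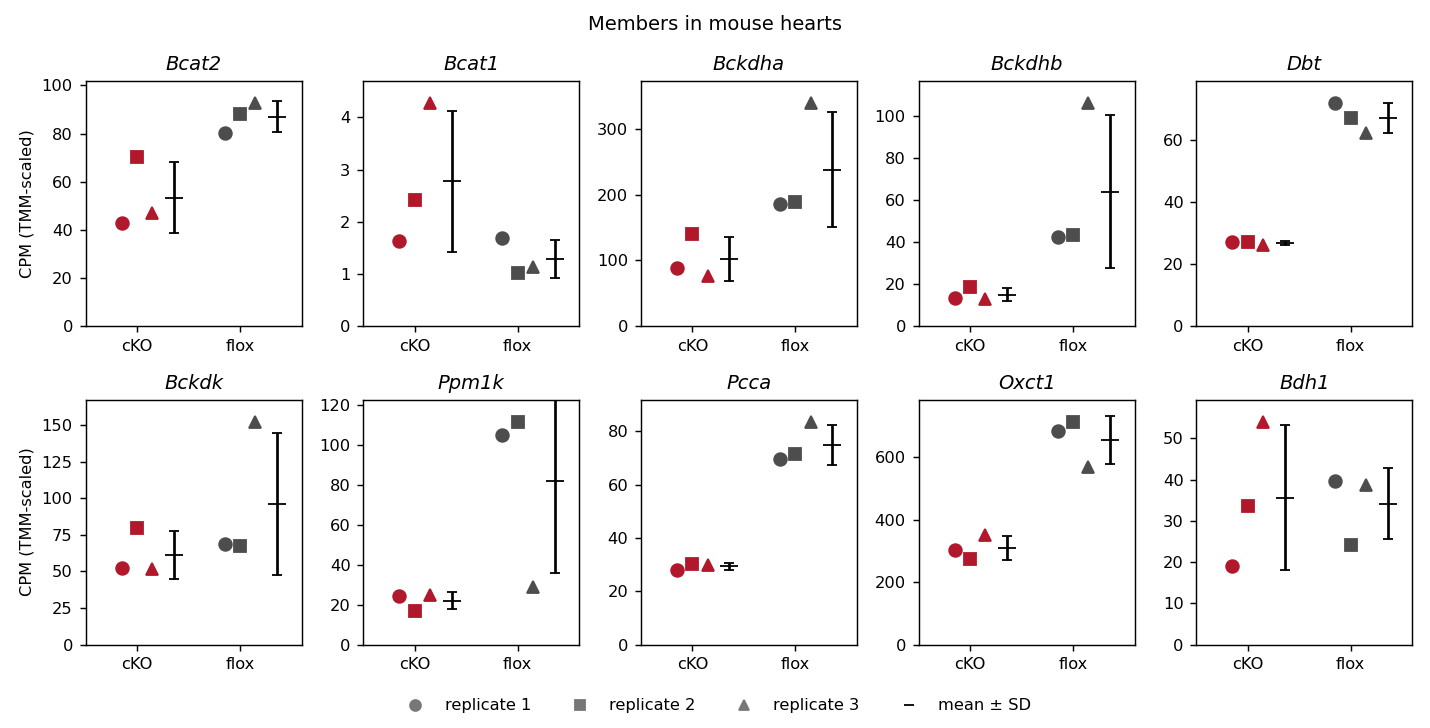
Levels of the 10 genes in each heart library, in CPM on TMM-scaled library sizes with the vertical axis starting at 0, for cKO (red) and flox (grey) hearts, with bars for the mean ± SD over 3 libraries. On this scale Dbt, Pcca and Oxct1 form tight, separate groups, while Bckdhb, Bckdk and Ppm1k have wide flox bars, with replicate 3 apart at 106, 152 and 28.9 CPM.

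Of the transaminases, Bcat2 is the mitochondrial enzyme and the main form outside the brain. It had 42.7, 70.2 and 46.9 CPM in cKO hearts, against 80.0, 88.3 and 92.6 CPM in flox hearts. On the TMM scale all cKO libraries were below the flox libraries, by a log2 fold change of -0.71 (SE 0.32, edgeR adjusted p = 0.364). Bcat1, the cytosolic transaminase, was sparse in the same hearts, at 1.64, 2.42 and 4.27 CPM in cKO hearts and 1.69, 1.01 and 1.13 CPM in flox hearts. These values rest on 156, 190 and 382 counts in cKO hearts and on 133, 78 and 40 counts in flox hearts. The groups overlapped through cKO replicate 1, and the log2 fold change was 1.12 (SE 0.48, edgeR adjusted p = 0.344). Within each library, the count ratio of Bcat1 to Bcat2 was 0.0385, 0.0345 and 0.0911 in cKO hearts, against 0.0212, 0.0115 and 0.0124 in flox hearts. The ratio needs no library scaling, and the groups did not overlap. It does depend on each library's trend with transcript length, and the longest transcripts have 7833 (Bcat1) and 2081 bases (Bcat2). With that trend removed, the log2 fold changes were 0.58 for Bcat1 and -0.76 for Bcat2 (edgeR adjusted p = 0.653 and 0.0817). The part of transcript length in this ratio was not tested. The difference of the mean log2 ratios was 1.77, with a two-sided exact permutation p of 0.1, the smallest that 3 against 3 libraries allow (0.2 adjusted by the Benjamini-Hochberg method over the 10 ratio tests).

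The catalytic subunits of the dehydrogenase complex were lower in every cKO heart than in any flox heart on the TMM scale. Bckdha, the alpha subunit that carries the regulatory phosphorylation, had 88.6, 140 and 76.3 CPM in cKO hearts, against 186, 189 and 339 CPM in flox hearts. The gap between the groups was set by cKO replicate 2 and flox replicate 1, and the log2 fold change of -1.22 (SE 0.42, edgeR adjusted p = 0.245) moved to -0.88 (adjusted p = 0.13) without flox replicate 3. Bckdhb, the beta subunit, had 13.4, 18.5 and 12.8 CPM in cKO hearts, against 42.6, 43.2 and 106 CPM in flox hearts. Its log2 fold change of -2.10 (SE 0.47, edgeR adjusted p = 0.106) was the lowest of the 10. Without flox replicate 3, whose value was more than that of both other flox libraries together, Bckdhb fell by 1.52 on the log2 scale (SE 0.22, edgeR adjusted p = 0.014). Dbt, the transacylase core, had 27.1, 27.3 and 26.0 CPM in cKO hearts, against 71.9, 67.3 and 62.3 CPM in flox hearts. These are the most even values among the 10 genes, at 26.8 ± 0.652 CPM in cKO and 67.2 ± 4.81 CPM in flox hearts (SD, n = 3 each). The log2 fold change of Dbt was -1.33 (SE 0.27, edgeR adjusted p = 0.0924) with all libraries and -1.37 (SE 0.18, adjusted p = 0.0105) without flox replicate 3.

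Ratios between the subunits were compared within each library. The count ratio of Bckdha to Bckdhb was 6.63, 7.57 and 5.96 in cKO hearts, against 4.36, 4.36 and 3.2 in flox hearts, with no overlap. The log2 ratio differed by 0.77 (two-sided exact permutation p = 0.1, the smallest possible, and 0.2 adjusted over the 10 ratio tests). The log2 ratio of Dbt to Bckdhb was 0.87 ± 0.27 in cKO hearts and 0.21 ± 0.85 in flox hearts (SD, n = 3 each), and these groups overlapped (difference 0.66, exact permutation p = 0.3). Without flox replicate 3 the difference was 0.17. Flox replicate 3 and cKO replicate 2 read short transcripts higher than the other libraries of their groups. The part of transcript length in these ratios was not tested. The longest annotated transcript has 1477 bases for Bckdhb, 1899 for Bckdha and 3301 for Dbt.

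Of the enzymes that switch the complex, Bckdk, the inactivating kinase, had 52.1, 79.9 and 51.7 CPM in cKO hearts, against 69.0, 67.3 and 152 CPM in flox hearts. The groups overlapped, and the log2 fold change of -0.65 (SE 0.44, edgeR adjusted p = 0.554) came to -0.15 (SE 0.25, adjusted p = 0.78) without flox replicate 3 and to 0.11 when only total counts set the scale. Ppm1k, the phosphatase that reactivates the complex, had 24.1, 16.9 and 24.6 CPM in cKO hearts, against 105, 112 and 28.9 CPM in flox hearts. Flox replicate 3 lay close to the cKO libraries and far from its own group. The log2 fold change of Ppm1k was -1.90 (SE 0.54, edgeR adjusted p = 0.172) with all libraries, and without flox replicate 3 it fell by 2.30 on the log2 scale (SE 0.23, edgeR adjusted p = 0.00611), the smallest adjusted p of the 10 genes in that fit. The count ratio of Bckdk to Ppm1k was 2.16, 4.72 and 2.1 in cKO hearts, against 0.659, 0.604 and 5.27 in flox hearts. All 3 cKO hearts thus held more kinase than phosphatase counts, as did flox replicate 3, while flox replicates 1 and 2 held fewer. The longest transcript has 3405 bases for Bckdk and 5560 for Ppm1k. Per kilobase, Bckdk and Ppm1k were close, at 20.3 and 18.8 CPM in flox replicate 1 and 19.8 and 20.1 CPM in flox replicate 2. In the other hearts Bckdk was higher per kilobase too. The mean log2 ratio differed by 1.12 (exact permutation p = 0.4), and by 2.14 without flox replicate 3. It was 0.74 without cKO replicate 2, 0.64 without flox replicate 1 and 0.58 without flox replicate 2.

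**Figure D2:**
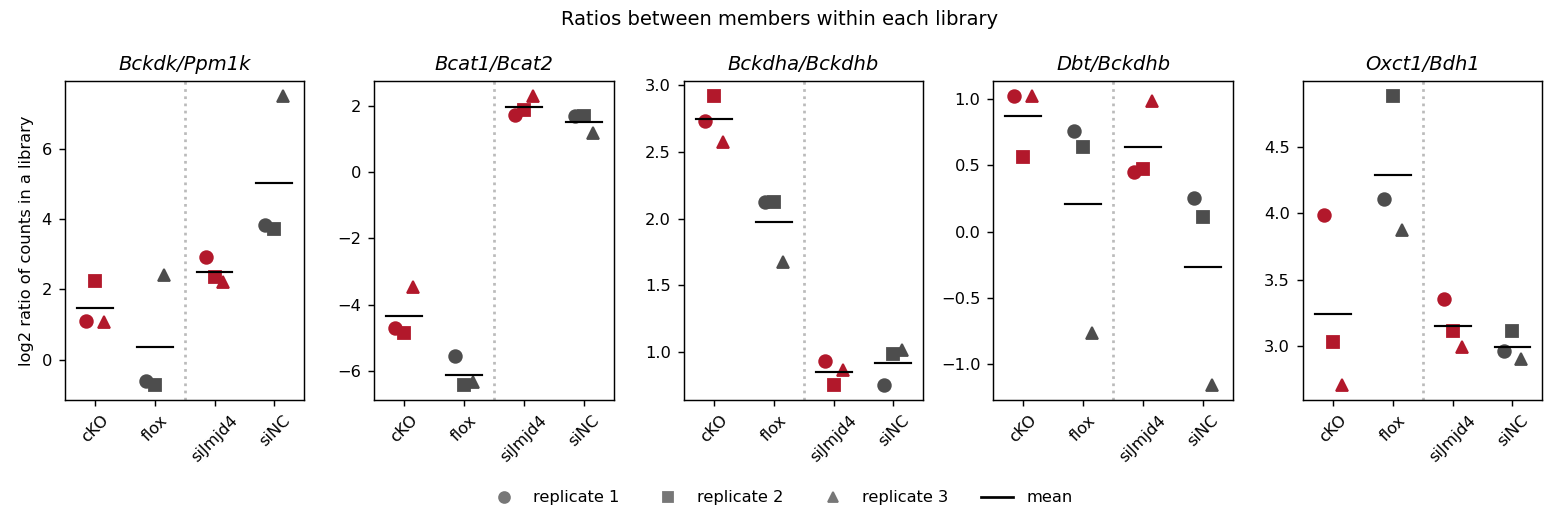
Log2 ratio of the counts of paired genes within each library (vertical axis, a separate scale per panel) in cKO and flox hearts and in siJmjd4 and siNC NRVCs, with a bar at each group's mean. The Bckdk to Ppm1k ratio was 5.27 in flox replicate 3 and 183 in siNC replicate 3, above all other libraries of the same system.

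Downstream of the complex, Pcca had 27.9, 30.1 and 29.9 CPM in cKO hearts, against 69.6, 71.7 and 83.6 CPM in flox hearts. The groups were far apart for their spread, at 29.3 ± 1.23 CPM in cKO and 74.9 ± 7.53 CPM in flox hearts (SD, n = 3 each). Its log2 fold change was -1.36 (SE 0.28, edgeR adjusted p = 0.0913), the smallest adjusted p of the 10 with all libraries, and without flox replicate 3 it fell by 1.27 (SE 0.18, adjusted p = 0.0123). Exons of Pcca overlap those of Ggact on the other strand, and exons of Bckdha overlap those of B3gnt8. Exons of Bcat1, Bcat2, Bdh1 and Oxct1 overlap noncoding genes on the other strand. Whether counting used the strand is not stated in the labels, so reads of such pairs cannot be told apart.

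Of the ketone enzymes, Oxct1, the acetoacetate-activating transferase, had 302, 275 and 352 CPM in cKO hearts, against 685, 714 and 568.3 CPM in flox hearts. No library crossed into the other group on the TMM scale, and the log2 fold change was -1.08 (SE 0.35, edgeR adjusted p = 0.21). Without flox replicate 3, Oxct1 fell by 1.17 (SE 0.22, edgeR adjusted p = 0.0263). Bdh1, which makes acetoacetate from 3-hydroxybutyrate, had 19.1, 33.6 and 54.0 CPM in cKO hearts, against 39.7, 24.1 and 38.8 CPM in flox hearts. The cKO values enclosed the flox values, and the log2 fold change was 0.06 (SE 0.45, edgeR adjusted p = 0.972), with a sign that turned under other scalings. The log2 ratio of Oxct1 to Bdh1 was 3.24 ± 0.67 in cKO hearts and 4.29 ± 0.53 in flox hearts (SD, n = 3 each), with overlap and an exact permutation p of 0.2.

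Per kilobase of the longest annotated transcript, the order of levels in cKO hearts was Oxct1 at 87.8 CPM per kb, Bckdha at 53.6, Bcat2 at 25.6, Bckdk at 18.0, Bdh1 at 11.4, Pcca at 11.3, Bckdhb at 10.1, Dbt at 8.12, Ppm1k at 3.93 and Bcat1 at 0.354. Neighbours from Bcat2 to Bckdhb in this order overlapped in their ranges over 3 libraries, and the other neighbours did not. In flox hearts the order was Oxct1 at 186 CPM per kb, Bckdha at 125, Bckdhb at 43.3, Bcat2 at 41.8, Pcca at 28.9, Bckdk at 28.3, Dbt at 20.4, Ppm1k at 14.7, Bdh1 at 10.96 and Bcat1 at 0.163. There Oxct1 and Bckdha overlapped, as did Bckdhb and Bcat2 and all neighbours from Pcca to Bdh1. Oxct1 and Bckdha thus led and Bcat1 came last in both groups, while the place of Bckdhb before Bcat2 in flox hearts rested on replicate 3. Bckdhb had 28.8, 29.3 and 71.8 CPM per kb in flox replicates 1, 2 and 3, against 38.5, 42.4 and 44.5 CPM per kb for Bcat2.

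The 10 genes differed in how the outlying control libraries read them. In flox replicate 3, relative to the mean of flox replicates 1 and 2, the short Bckdhb was higher by 1.305 on the log2 scale and the long Ppm1k was at -1.90. Bckdk, with 3405 bases, was higher by 1.16, so length did not order all members. In siNC replicate 3, relative to the other siNC libraries, Ppm1k was at -2.92, Bckdk at 0.85 and Bckdha at 0.81. Bcat1, with the longest transcript of 7833 bases, was at -0.26 in the flox library and 0.24 in the siNC library. The part of transcript length or RNA quality in these values was not tested.

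**Figure D3:**
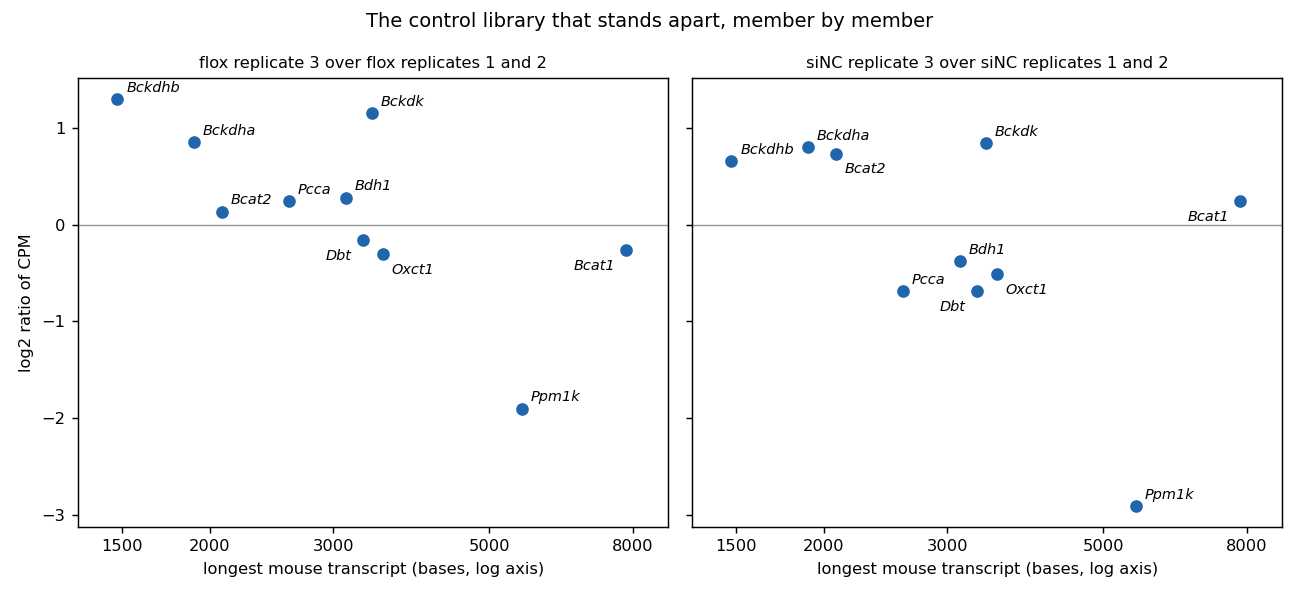
Log2 ratio of the CPM in flox replicate 3 to flox replicates 1 and 2 (left) and in siNC replicate 3 to siNC replicates 1 and 2 (right) against the length of the longest mouse transcript, on a log axis, for the 10 genes. Ppm1k lies lowest in both panels, at -1.90 and -2.92, and Bckdhb, Bckdha and Bckdk lie above 0 in both.

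The 29 other genes of the pathways gave the same overall direction in hearts, in lists by position. None was called with all libraries, 23 had a negative log2 fold change and 6 a positive one, and the median was -0.76. Without flox replicate 3 a total of 8 were called, 2 higher and 6 lower, against 7.19% of all genes called in either direction. All 5 genes of the leucine arm were negative, with a median of -0.76, and 2 of them fell without flox replicate 3. These were Ivd, isovaleryl-CoA dehydrogenase, with 88.4 ± 19.5 CPM in cKO and 209 ± 41.9 CPM in flox hearts (log2 fold change -1.28 without flox replicate 3, edgeR adjusted p = 0.0399), and Mccc2, a subunit of methylcrotonyl-CoA carboxylase, with 25.4 ± 4.08 CPM in cKO and 58.8 ± 12.7 CPM in flox hearts (-1.02, adjusted p = 0.0335). All 8 genes of the valine and isoleucine arm were negative, with a median of -1.24. Of these, Aldh6a1, methylmalonate semialdehyde dehydrogenase, fell by 1.44 without flox replicate 3 (edgeR adjusted p = 0.0135), and had 82.4 ± 9.81 CPM in cKO and 206 ± 33.2 CPM in flox hearts with all libraries. Echs1, the enoyl-CoA hydratase, fell by 1.15 in the same fit (adjusted p = 0.0407), against a log2 fold change of -1.82 with all libraries. All 6 genes of the propionate arm were negative, with a median of -0.98. Mut, methylmalonyl-CoA mutase, fell by 1.198 without flox replicate 3 (edgeR adjusted p = 0.0205) and had 48.6 ± 5.89 CPM in cKO and 100.0 ± 20.6 CPM in flox hearts. All SDs are over 3 libraries.

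Genes upstream of the mitochondrion and of ketone handling did not share that direction. Slc7a5, the light chain of a transporter of large neutral amino acids, had 10.8 ± 1.12 CPM in cKO and 3.81 ± 2.55 CPM in flox hearts (SD, n = 3 each) and rose by 1.04 on the log2 scale without flox replicate 3 (edgeR adjusted p = 0.0444). Slc3a2, the heavy chain that pairs with it, had 54.2 ± 12.8 CPM in cKO and 29.0 ± 3.06 CPM in flox hearts (log2 fold change 0.90, SE 0.31, edgeR adjusted p = 0.242). Dld, the dehydrogenase subunit that the complex shares with those for pyruvate and oxoglutarate, went the other way and fell by 1.04 without flox replicate 3 (edgeR adjusted p = 0.0439). Bdh2, a cytosolic dehydrogenase named for 3-hydroxybutyrate, was sparse at 1.22 ± 0.218 CPM in cKO and 0.229 ± 0.0976 CPM in flox hearts (SD, n = 3 each). It rose by 2.81 on the log2 scale without flox replicate 3 (edgeR adjusted p = 0.025). Aacs, the acetoacetyl-CoA synthetase of the cytosol, had a log2 fold change of 1.14 (SE 0.36, edgeR adjusted p = 0.202).

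Of 7 regulators of mitochondrial fuel genes, 6 had a negative log2 fold change in hearts, with a median of -1.33. Without flox replicate 3, 2 of them fell, where 2.93% of all genes were called lower. Klf15, a transcription factor known to activate branched-chain amino acid genes in heart and muscle, had 20.6 ± 3.46 CPM in cKO and 51.6 ± 14.3 CPM in flox hearts (SD, n = 3 each). It fell by 1.09 without flox replicate 3 (edgeR adjusted p = 0.0339), against -1.33 (adjusted p = 0.129) with all libraries. Ppargc1a, a coactivator of mitochondrial genes, had 31.1 ± 8.20 CPM in cKO and 103 ± 44.9 CPM in flox hearts (SD, n = 3 each) and fell by 2.04 in that fit (edgeR adjusted p = 0.0108).

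Markers of cell types differed with the group as well. The 7 fibroblast markers summed to 2506 to 6304 CPM in cKO hearts, against 765 to 1077 CPM in flox hearts, and all 7 had positive log2 fold changes (median 1.42). None of them was called with all libraries, where 67 of all 18094 genes were called higher. Without flox replicate 3, 3 were called higher, as were 813 of all 19094 genes. The 8 cardiomyocyte markers had a median log2 fold change of -0.51, none called, against -1.15 for the 10 genes. Of these markers 6 were negative and 2 positive. Without flox replicate 3, 4 were negative and 4 positive, with a median of -0.42, against -1.02 for the 10 genes. Macrophage markers summed to 717 to 1016 CPM in cKO and 349 to 702 CPM in flox hearts. Of these 7 markers, 1 was called higher with all libraries and 5 without flox replicate 3, beside the same shares of all genes. Endothelial markers summed to 545 to 684 CPM in cKO and 274 to 847 CPM in flox hearts. Smooth muscle and pericyte markers summed to 775 to 837 CPM in cKO and 837 to 1226 CPM in flox hearts, and proliferation markers to 9.75 to 67.8 CPM in cKO and 3.11 to 15.2 CPM in flox hearts. Adipocyte markers summed to at most 1.39 CPM in cKO and 0.242 CPM in flox hearts, with Adipoq, Plin1 and Lep at 0 in a whole group. The part of cell makeup in the lower levels of the 10 genes was not tested, and in bulk tissue fewer cardiomyocytes and less RNA per cardiomyocyte cannot be told apart.

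In NRVCs the 10 genes showed no common direction. The log2 fold changes of siJmjd4 against siNC libraries ran from -0.55 to 1.56, 4 positive and 6 negative, with a median of -0.05 over the 10 and 0.01 over all 15497 genes tested. None was called by edgeR with all libraries, where 0.00645% of genes were, and none by DESeq2, where 1.08% of genes were. None had an unadjusted edgeR p under 0.05, as 8.71% of genes did. For 5 of the 10 the groups did not overlap, against 40.2% of all genes tested. Ppm1k was the member with the largest difference. It had 12.7, 17.4 and 18.4 CPM in siJmjd4 libraries, against 7.43, 7.95 and 1.02 CPM in siNC libraries, so every siJmjd4 library was higher and siNC replicate 3 was lowest by far. The counts behind these were 1100, 1095 and 1322 in siJmjd4 libraries and 444, 515 and 54 in siNC libraries. The log2 fold change of Ppm1k was 1.56 (SE 0.69, edgeR adjusted p = 0.379), and without siNC replicate 3 it rose by 1.07 (SE 0.18, edgeR adjusted p = 0.0489), the only member called in that fit, where 0.487% of all genes were called higher. It was also the only member called by limma voom with library quality weights, where 3.43% of genes were called higher. Without both siNC replicate 3 and siJmjd4 replicate 1, Ppm1k was called higher (10.6% of all genes were) and Bckdk lower (5.18%).

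**Figure D4:**
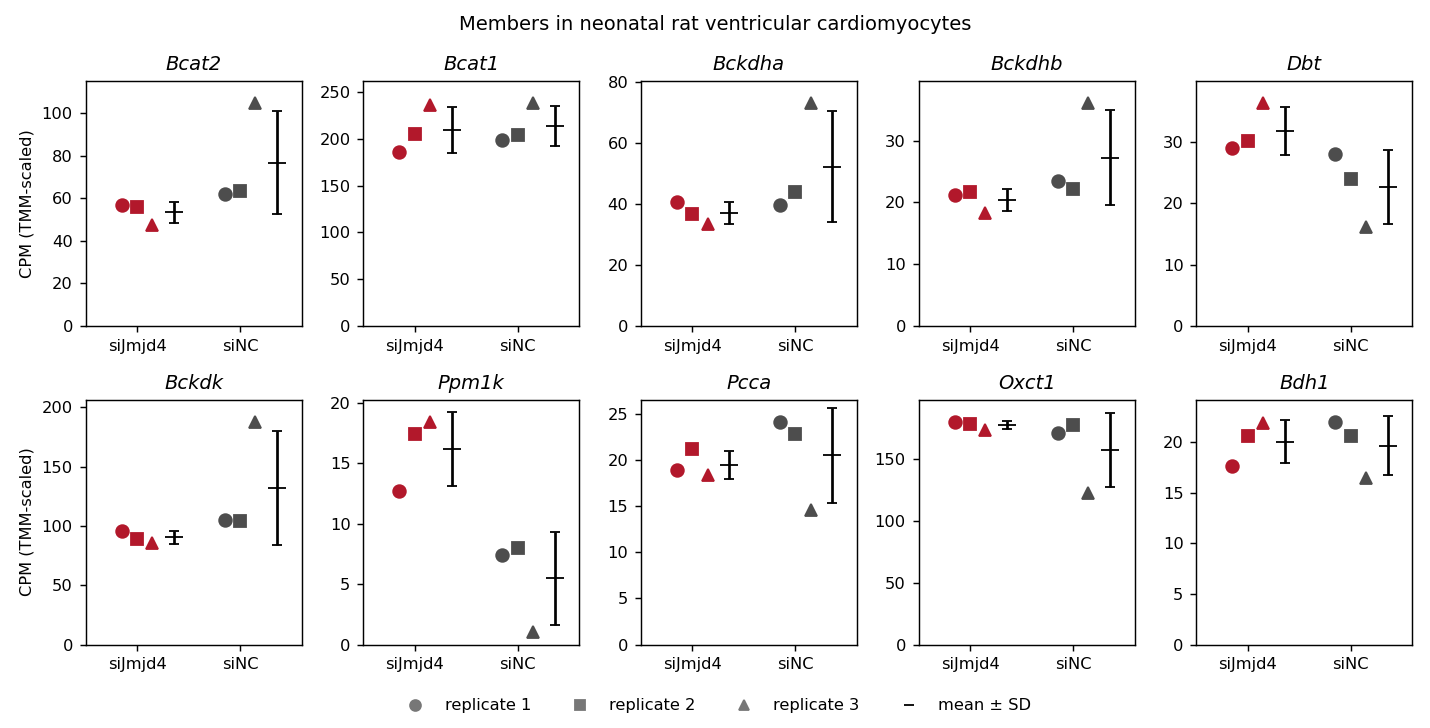
Levels of the 10 genes in each NRVC library, in CPM on TMM-scaled library sizes with the vertical axis starting at 0, for siJmjd4 (red) and siNC (grey), with bars for the mean ± SD over 3 libraries. In most panels siNC replicate 3 lies apart from siNC replicates 1 and 2, above them for Bcat2, Bckdha, Bckdhb and Bckdk and below them for Dbt, Ppm1k, Pcca, Oxct1 and Bdh1.

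Bckdk, the kinase, had 96.1, 89.2 and 85.8 CPM in siJmjd4 libraries, against 105, 104 and 188 CPM in siNC libraries (log2 fold change -0.55, SE 0.26, edgeR adjusted p = 0.379). The difference was -0.21 (SE 0.08, adjusted p = 0.148) without siNC replicate 3. The count ratio of Bckdk to Ppm1k was 7.56, 5.11 and 4.65 in siJmjd4 libraries, against 14.1, 13.1 and 183 in siNC libraries, so kinase counts exceeded phosphatase counts throughout and less so in each siJmjd4 library. The mean log2 ratio differed by -2.52 (exact permutation p = 0.1, the smallest possible), and by -1.27 without siNC replicate 3. In hearts the same difference was 1.12, with overlap between the groups.

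Of the catalytic subunits, Dbt had 29.0, 30.1 and 36.2 CPM in siJmjd4 libraries, against 27.97, 23.9 and 16.1 CPM in siNC libraries. The groups were adjacent without overlap (log2 fold change 0.49, SE 0.24, edgeR adjusted p = 0.379, and 0.29 without siNC replicate 3). Bckdha had 40.6, 36.6 and 33.4 CPM in siJmjd4 libraries, against 39.5, 43.8 and 72.9 CPM in siNC libraries, and the groups overlapped. Bckdhb had 21.2, 21.6 and 18.3 CPM in siJmjd4 libraries, against 23.5, 22.2 and 36.0 CPM in siNC libraries, a narrow separation outside replicate 3. Their log2 fold changes of -0.50 and -0.42 came to -0.17 and -0.16 without siNC replicate 3. The log2 ratio of Dbt to Bckdhb was 0.64 ± 0.30 in siJmjd4 and -0.27 ± 0.78 in siNC libraries (SD, n = 3 each, exact permutation p = 0.1). Its difference of 0.90 came to 0.46 without siNC replicate 3. The log2 ratio of Bckdha to Bckdhb differed by -0.06 (exact permutation p = 0.6).

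Bcat1 and Bcat2 stood in another relation in NRVCs than in hearts. Bcat1 had 186, 205 and 236 CPM in siJmjd4 libraries, against 199, 204 and 238 CPM in siNC libraries, with near-complete overlap. Bcat2 had 56.7, 55.8 and 47.6 CPM in siJmjd4 libraries, against 61.9, 63.6 and 105 CPM in siNC libraries (log2 fold change -0.52, SE 0.24, edgeR adjusted p = 0.379). The count ratio of Bcat1 to Bcat2 was 3.29, 3.68 and 4.95 in siJmjd4 libraries and 3.21, 3.2 and 2.27 in siNC libraries, above 1 in every NRVC library and below 0.1 in every heart library. The tables come from different species and gene models, and Bcat1 has the longer transcript in the mouse. The log2 ratio differed by 0.45 between siJmjd4 and siNC libraries (exact permutation p = 0.1), by 0.29 without siNC replicate 3 and by 0.28 without siJmjd4 replicate 3. NRVC libraries held fibroblast markers at a summed 35460 to 40700 CPM in siJmjd4 and 30040 to 36320 CPM in siNC libraries, above the cardiomyocyte markers at 9257 to 11490 CPM in siJmjd4 and 12090 to 18490 CPM in siNC libraries.

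With all libraries, Pcca, Oxct1 and Bdh1 had values close to those of their controls in NRVCs. Pcca had 18.9, 21.2 and 18.4 CPM in siJmjd4 libraries, against 24.2, 22.9 and 14.6 CPM in siNC libraries. Its overlap came from siNC replicate 3 alone. Without that library the log2 fold change of Pcca was -0.27 (SE 0.11, edgeR adjusted p = 0.1955), and those of Oxct1 and Bdh1 were 0.02 and -0.09. Oxct1 had 180, 179 and 174 CPM in siJmjd4 libraries, against 172, 178 and 123 CPM in siNC libraries. Bdh1 had 17.7, 20.6 and 21.9 CPM in siJmjd4 libraries, against 22.0, 20.6 and 16.4 CPM in siNC libraries. All 3 overlapped between the groups, with log2 fold changes of -0.07, 0.17 and 0.03 (SE 0.23, 0.18 and 0.19) and edgeR adjusted p of 0.852, 0.545 and 0.937. Of the 29 other pathway genes, none was called in NRVCs, 16 were positive and 13 negative, and the median was 0.02. Acadsb, the dehydrogenase of the isoleucine arm, had the highest log2 fold change among them, with 14.5 ± 2.06 CPM in siJmjd4 and 4.62 ± 3.87 CPM in siNC libraries (SD, n = 3 each, log2 fold change 1.65, SE 0.92, edgeR adjusted p = 0.379).

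**Figure D5:**
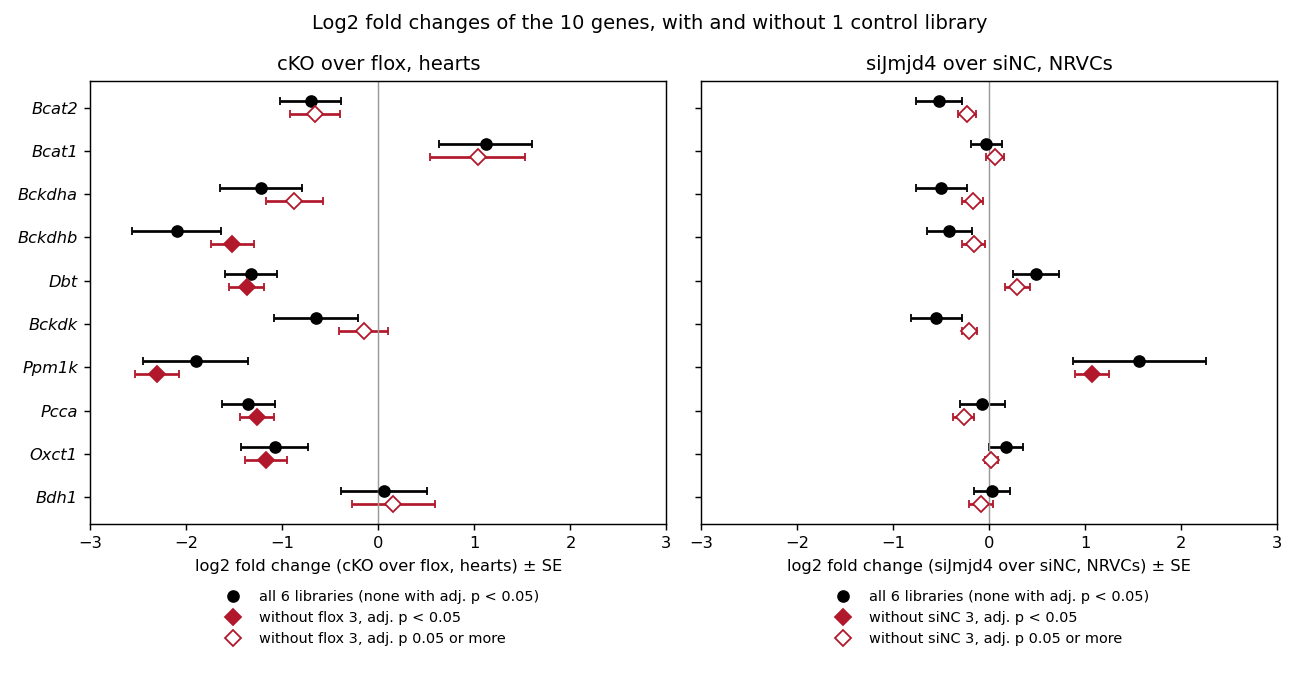
Log2 fold changes ± SE of the 10 genes in hearts (left, cKO over flox) and NRVCs (right, siJmjd4 over siNC), with all 6 libraries (black circles) and without flox or siNC replicate 3 (red diamonds, filled at an edgeR adjusted p under 0.05). Filled diamonds mark Bckdhb, Dbt, Ppm1k, Pcca and Oxct1 on the left and Ppm1k alone on the right, where its sign is the opposite.

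The heart and NRVC responses were set against each other in an edgeR model with all 12 libraries, over the 13482 genes with a shared symbol. The model shared its estimate of the spread between the systems. The systems differ in species, in tissue against culture and in gene deletion against siRNA, which cannot be told apart here. Dbt differed, with a heart minus NRVC difference in log2 fold change of -1.81 (SE 0.35, adjusted p = 0.0268), and was the only member called, where 1.68% of genes were called. It was not called with scaling to total counts (-1.39, edgeR adjusted p = 0.21). Within hearts and within NRVCs, Dbt was not called with all libraries (edgeR adjusted p = 0.0924 and 0.379). Ppm1k had the largest difference, at -3.48 (SE 0.93, edgeR adjusted p = 0.089). Without flox replicate 3 and siNC replicate 3, 5 members differed, all lower in hearts relative to NRVCs, where 5.68% of genes were called lower and 12.8% in either direction. In that fit Ppm1k had a difference of -3.38 (edgeR adjusted p = 0.000356), Pcca of -1.01 (0.00577), Oxct1 of -1.204 (0.00556) and Bckdhb of -1.37 (0.00888), beside Dbt. Bcat2, Bckdk and Bdh1 had differences of -0.18, -0.09 and 0.03 with all libraries (edgeR adjusted p = 0.886, 0.978 and 1.00).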

How the data were processed

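RNA sequencing was done on 6 mouse heart and 6 rat NRVC libraries, from total RNA extracted with TRIzol, per the labels' protocols. The authors deposited raw counts, whole numbers by gene symbol, in a table for each system. The submitters' processing notes name edgeR 3.20.9, HISAT2 2.1.0 and StringTie 1.3.4, with rn6 and mm10 as builds and no role for any of them. Which annotation and counting rules were used is not stated in the labels. Groups and columns were taken from the labels, and no replicate repeated another, since a chi-square test between replicates gave 27.2 to 1730 per degree of freedom.

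Genes were filtered with filterByExpr, scaled by TMM and tested per system with edgeR's robust quasi-likelihood model (edgeR 4.0.16, R 4.3.3), two-sided, with Benjamini-Hochberg adjustment over all genes tested and a threshold of 0.05. Standard errors were computed from the F statistic. Ratios between members used counts plus 0.5 for the log2 scale and an exact permutation test. Alternatives were DESeq2 1.42.0 (Wald test and size factors), limma 3.58.1 voom with quality weights, total-count scaling, a floor of 5 CPM on the mean, no filter, the replicate block, removal of the length trend (loess span 0.3) and leaving out libraries. Transcript lengths were those of the longest GENCODE M21 transcript. All 10 members had a length, but only 78.9% of tested mouse genes did, under the 80% needed for a check over all genes, so the length-corrected fit is a description. Rat genes took the length of the mouse symbol (82.8%). The code was tested on simulated data.

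The members, lists, tests and the choice of libraries to leave out were made with earlier results of these data known. The text names all members, and by rule the pathway genes with the smallest p per list, of which it gives a selection. Depth is given in the report.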

Additional observations from a re-analysis of the deposited data

Results flagged for a closer look

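The log2 fold change of Dbt was -1.33 in cKO against flox hearts and 0.49 in siJmjd4 against siNC NRVCs, a difference of -1.81 (SE 0.35, edgeR adjusted p = 0.0268). It drew attention because the response differed between the systems by a test of the difference itself, with the spread shared between the systems. The call was lost with total counts as the scale (-1.39, edgeR adjusted p = 0.21) and with the replicate block (-1.84, adjusted p = 0.245). All 3 cKO hearts were below all 3 flox hearts on the TMM scale, as was so for 11.2% of all heart genes tested. All 3 siJmjd4 libraries were above all 3 siNC libraries, and 40.2% of all NRVC genes tested had no overlap in either direction. Without siNC replicate 3 the NRVC log2 fold change of Dbt was 0.29 (edgeR adjusted p = 0.208).

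The same test separated the systems for Bdh2, which had a difference of 2.87 (SE 0.56, edgeR adjusted p = 0.0279). Its log2 fold change was 2.44 in cKO against flox hearts and -0.40 in siJmjd4 against siNC NRVCs, at means of 1.22 CPM in cKO hearts, 0.229 CPM in flox hearts, 5.14 CPM in siJmjd4 and 6.81 CPM in siNC libraries.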

How the results depend on the processing

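In hearts, 0 of 10 members and 0 of 29 other pathway genes were called with all libraries. These counts were 6 and 12 with DESeq2 (9.66% of all genes called in either direction), 7 and 21 with limma voom (21.3%), 6 and 11 with the length trend removed (7%), 7 and 21 without flox replicate 3 and cKO replicate 2 (19.1%), and 0 to 5 and 0 to 8 when each library was left out in turn, where calls came only without flox replicate 3. In NRVCs, from 0 and 0, they were 1 and 1 with limma voom (3.94%), 2 and 4 without siNC replicate 3 and siJmjd4 replicate 1 (15.8%), and 0 to 1 and 0 when each library was left out, with the 1 from siNC replicate 3. DESeq2's size factors in edgeR, total counts, no filter and a mean of 5 CPM left 0 members called in both systems. In that order they called 0.459%, 0.111%, 0.519% and 0.747% of all heart genes, and at most 0.00925% of NRVC genes. In hearts, leaving out any single library but flox replicate 3 called 0 of all genes, and leaving out flox replicate 3 called 7.19%. In NRVCs, leaving out siNC replicate 3 called 0.57%. Members differing between the systems were 1 with all libraries, 5 without flox and siNC replicate 3, 0 with total counts and 0 with the replicate block. Samples with the same replicate number did not deviate together (correlations of 0.357, -0.479 and -0.331 in hearts and -0.142, -0.019 and -0.15 in NRVCs), so the numbers were not taken as pairs. The replicate block gave 0 members called in each system, where 0 of all genes were called. The cause of these changes was not tested. Small values turned sign. Heart Bdh1 (0.06) was -0.013 with DESeq2 or its size factors, -0.023 with the replicate block, -0.14 with the length trend removed and -0.37 to 0.36 when each library was left out, and heart Bckdk (-0.65) was 0.11 with total counts. NRVC Bcat1 (-0.03) was 0.074 with total counts, 0.042 with limma voom, 0.11 without siNC replicate 3 and siJmjd4 replicate 1 and -0.122 to 0.056 when each library was left out. NRVC Bdh1 (0.03) was -0.059 with limma voom, -0.022 with the length trend removed, -0.023 without those 2 libraries and -0.086 to 0.12 when each was left out. NRVC Pcca (-0.07) ran between -0.268 and 0.062 when each was left out, and Oxct1 (0.17) was -0.01 without those 2 libraries and up to 0.272 when each was left out. Between systems, Bckdk (-0.09) was 0.046 without flox and siNC replicate 3 and 0.45 with total counts, Bcat2 (-0.18) was 0.20 with total counts and Bdh1 (0.03) was -0.055 with the replicate block. With 3 libraries per group, an uncalled member is not shown to be unaffected.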

Other observations

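The genes most like the 10 members in hearts, by Pearson correlation of log2 CPM over 6 libraries with the members' mean standardised profile, were Dusp23 (r = 0.997), RP23-297J14.2 (0.995) and Ssu2 (0.995). No such genes are named for NRVCs, where correlations between members ran from -0.996 to 0.991 and a mean profile over the 10 stands for none of them. In hearts, Bcat1 had negative correlations with every other member but Bdh1, the lowest being -0.745 with Bckdha. The 6 libraries share the group difference and the library that stands apart, and these values are a description. Among the members themselves in hearts, Dbt and Pcca had a correlation of 0.976 and Bckdha and Bckdhb of 0.975. In NRVCs, Bckdk and Ppm1k had a correlation of -0.996.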
